A study of Rattus norvegicus with 10 samples.

Results

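Cytosolic heat shock and small chaperone genes were followed on Affymetrix rat arrays through all probe sets that the array annotation gives to 10 chosen genes, namely Cryab, Hspb1, Hspb7, Hspb8, Hspa1b, Hspa8, Hsph1, Hsp90aa1, Dnajb1 and Bag3. These are 15 of the 31042 probe sets of the table after controls were left out, and all 15 passed the filter on low values. The RNA came from cultured ventricular cardiomyocytes of Lewis rats aged 0 to 3 days. Nonpulsed cultures (3 arrays) received no stimulus, pulsed cultures (4 arrays) were paced electrically for 3 days at 1 Hz and 2 V/cm, and the third group (3 arrays) had the same pacing in medium with 10 µmol/L blebbistatin, an inhibitor of myosin II that stops contraction. The series' design text speaks of 3 arrays for each treatment, and the sample labels, which give 4 pulsed arrays, were followed. The arrays stem from 4 culture dates, numbered here as series 1 to 4, and each array was prepared from duplicate experiments whose RNA was pooled. All groups were present in series 2 and 3, whereas blebbistatin was absent from series 1 and the nonpulsed control from series 4. No array held blebbistatin without pacing, so the drug and the loss of contraction cannot be told apart.

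Chaperones keep proteins from clumping and help them fold. Small heat shock proteins bind unfolding clients without using ATP, HSP70 proteins then refold the clients in ATP-driven cycles that J proteins start and nucleotide exchange factors end, and HSP90 completes the folding of many kinases and receptors. Heat shock factor HSF1 switches on the inducible genes of the set by binding repeats of the sequence nGAAn in their promoters. In heart muscle these proteins guard the sarcomere: alpha B-crystallin (Cryab) binds desmin and titin, and BAG3 joins HSP70 to HSPB8 at the Z-disc for the removal of worn filamin.

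The heat shock element is the sequence feature through which part of this set is controlled, so it is shown for the members whose promoter holds it. RefSeq promoters (GRCr8) were at hand for 7 of the 10 genes, those of Bag3, Hspb1, Hspb7, Hspb8, Hspa8, Hsph1 and Dnajb1, and the 250 bases before the gene start were searched. The short motif (GAANNTTC or TTCNNGAA, each its own reverse complement) was present in 6 of the 7, against 13.5% of 33469 promoters. The long motif (GAANNTTCNNGAA or its reverse complement TTCNNGAANNTTC, both of which contain the short ones) was present in 2 of the 7, Hspa8 and Hsph1, against 0.663% of promoters. Hspb7 had neither motif in this window. The short match of Dnajb1 begins 11 bases before the gene start. The search ended at that start, so a long motif crossing it would not be found. Each line below gives 60 bases, 5′ to 3′ on the strand of the gene, with the fixed letters of the matches in capitals.
Hsph1 (chr12:10427308-10427367, + strand): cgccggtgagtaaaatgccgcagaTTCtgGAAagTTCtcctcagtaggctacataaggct
Hspa8 (chr8:50080435-50080494, + strand): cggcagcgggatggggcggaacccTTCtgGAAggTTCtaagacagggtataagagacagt
Hspb1 (chr12:26432377-26432436, - strand): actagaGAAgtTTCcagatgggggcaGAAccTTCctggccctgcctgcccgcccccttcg
Bag3 (chr1:192533302-192533361, + strand): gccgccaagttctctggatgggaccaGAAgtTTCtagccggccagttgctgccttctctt
Hspb8 (chr12:45837248-45837307, + strand): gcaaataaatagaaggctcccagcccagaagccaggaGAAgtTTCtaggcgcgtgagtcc
Dnajb1 (chr19:41431142-41431201, - strand): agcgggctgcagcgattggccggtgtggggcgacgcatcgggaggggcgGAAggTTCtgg
The long motif of Hsph1 starts 36 bases before the gene start and that of Hspa8 nearest the start begins 55 bases before it. A match is a run of letters, and binding of HSF1 was not measured here.

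Median log2 values of the arrays lay between 6.57 and 6.78, and the lowest level on each array between 3.32 and 3.46. The nonpulsed array of series 1 stood apart on the cardiomyocyte markers, whose summed linear level over 10 measured genes was 47810 there, against 64982 and 68411 on the other nonpulsed arrays, 66338 to 78969 on pulsed arrays and 70316 to 77085 with blebbistatin. Of these 10 genes, 0 lay at the lowest level on all arrays. Smooth muscle and pericyte markers summed to 13912 to 23334 in nonpulsed, 15166 to 18676 in pulsed and 8559 to 11713 in blebbistatin arrays, with 0 of 9 at the lowest level throughout, and fibroblast markers to 39324 to 61163, 36127 to 60643 and 30844 to 51038, with 0 of 10. RNA of other cells was therefore present on the arrays, and fewer cells of a type and less RNA per cell cannot be told apart. Fitted changes below are limma estimates over all 10 arrays with culture series as a block, and p-values are adjusted by the Benjamini-Hochberg method over the 23281 probe sets tested. The p-values rest on the spread between arrays of pooled RNA that remains after differences between groups and between culture series are fitted.

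With pacing, values of the set differed by small amounts in both directions. BAG3 mRNA was the one member that stood above all nonpulsed arrays on every pulsed array. The muscle small heat shock genes Hspb7 and Hspb8 and the HSP70-type genes Hsph1 and Hspa1b showed wide differences in series 1 and narrow ones in series 2 and 3. Of the 15 probe sets, 7 had a positive and 8 a negative fitted change, with a median of -0.02, while the median over all probe sets tested was 0.04 and 61.1% were positive. In limma 0 of the 15 passed the adjusted threshold of 0.05, where 0% of all probe sets did, and 1 (Bag3) had an unadjusted p under 0.05, where 9.08% did.

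**Figure D1:**
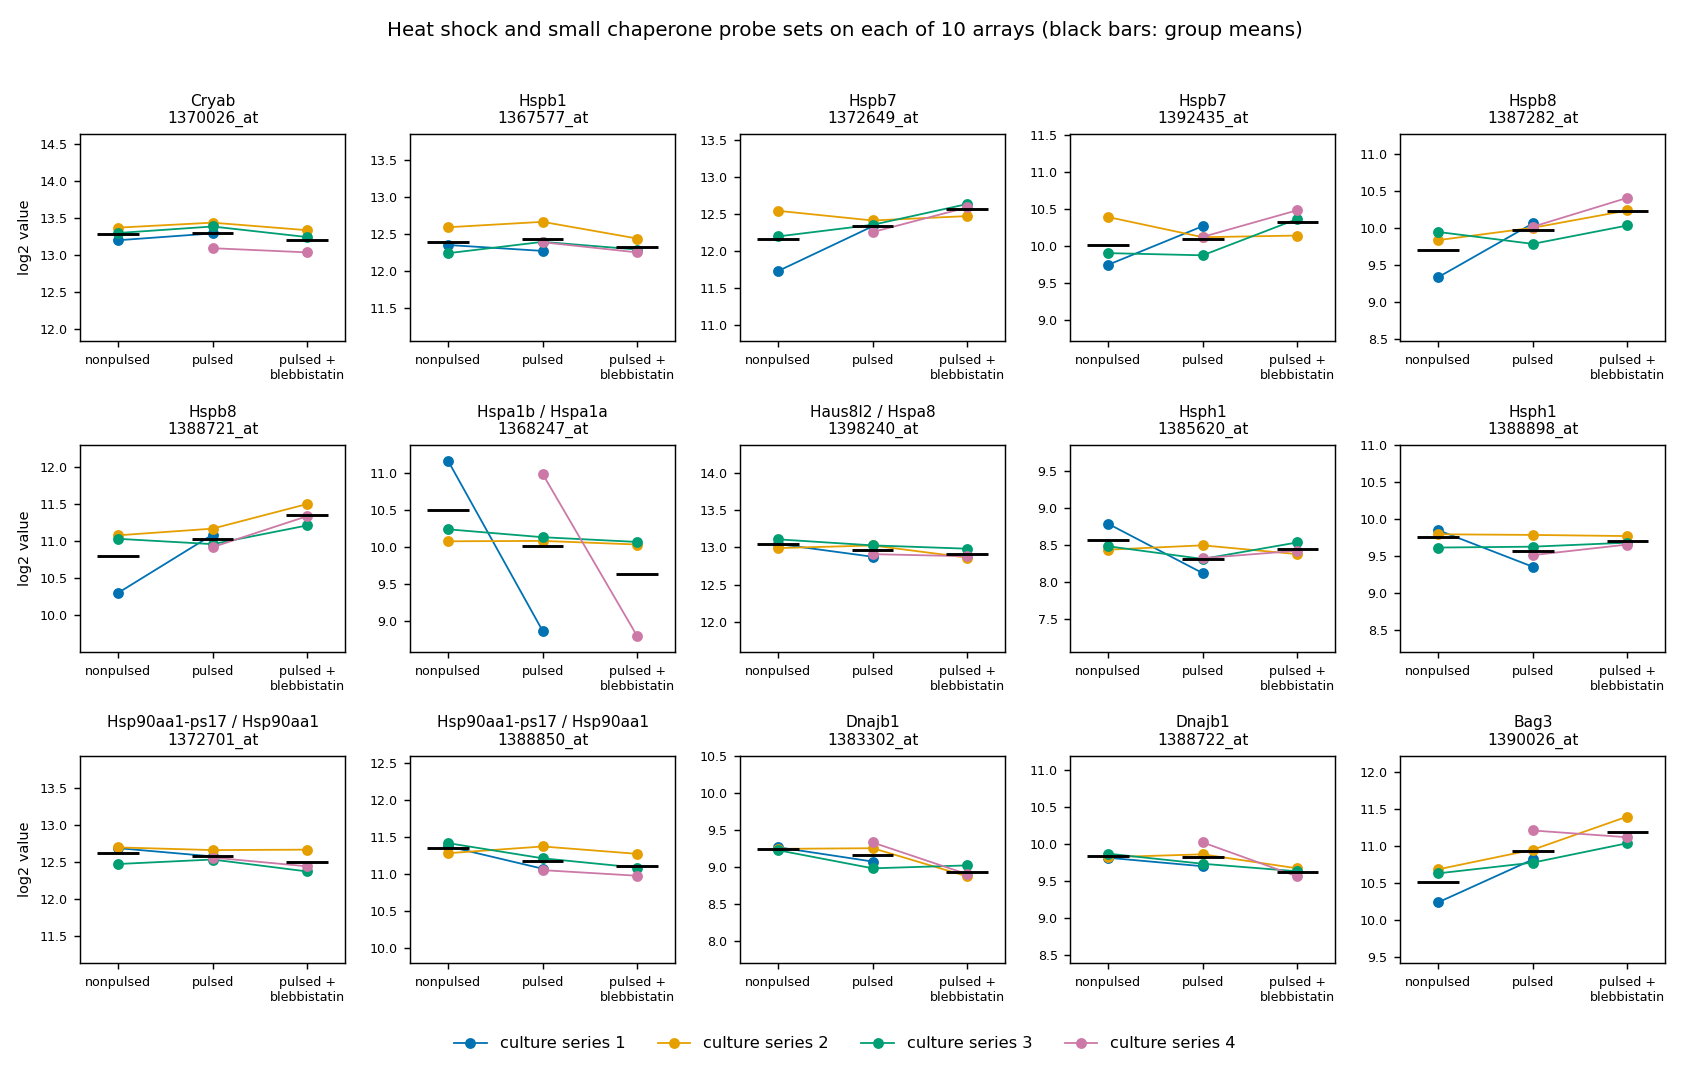
Log2 values of the 15 probe sets (vertical axis, on the same span in every panel) in the 3 groups, with 1 point per array, lines joining arrays of the same culture series and black bars at the group means. The probe set shared by Hspa1b and Hspa1a reads 11.17 and 8.87 in series 1 and 10.99 and 8.80 in series 4 and lies between 10.04 and 10.24 on the 6 arrays of series 2 and 3.

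Blebbistatin during pacing went with higher values of the BAG3 partner Hspb8 and of Hspb7 in 3 of 3 series, on both probe sets of each gene. Lower values in 3 of 3 series were read for Cryab, Hspb1, Hspa8, the shared Hspa1b and Hspa1a probe set, 1 of the 2 probe sets of Hsp90aa1 and 1 of the 2 of the J protein gene Dnajb1. Some of these differences were small, as for Hspa8 (-0.16, -0.04 and -0.03 in series 2, 3 and 4). The share of all probe sets with 1 direction in 3 of 3 series is not given, so these counts have no background beside them. Of the 15 probe sets, 7 had a positive and 8 a negative change against pulsed cultures, with a median of -0.06 against 0.02 over all probe sets. In limma 0 passed the adjusted threshold, as 0.0129% of all did, and 0 had an unadjusted p under 0.05, where 11.6% of all did. Against nonpulsed cultures, which share the blebbistatin arrays with the previous comparison, 5 were positive and 10 negative, with a median of -0.08 against 0.07 over all. Again 0 passed the adjusted threshold in limma (0.472% of all), and 3 had an unadjusted p under 0.05 (22.4% of all), namely Bag3, 1 probe set of Hspb8 and 1 of Dnajb1.

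**Figure D2:**
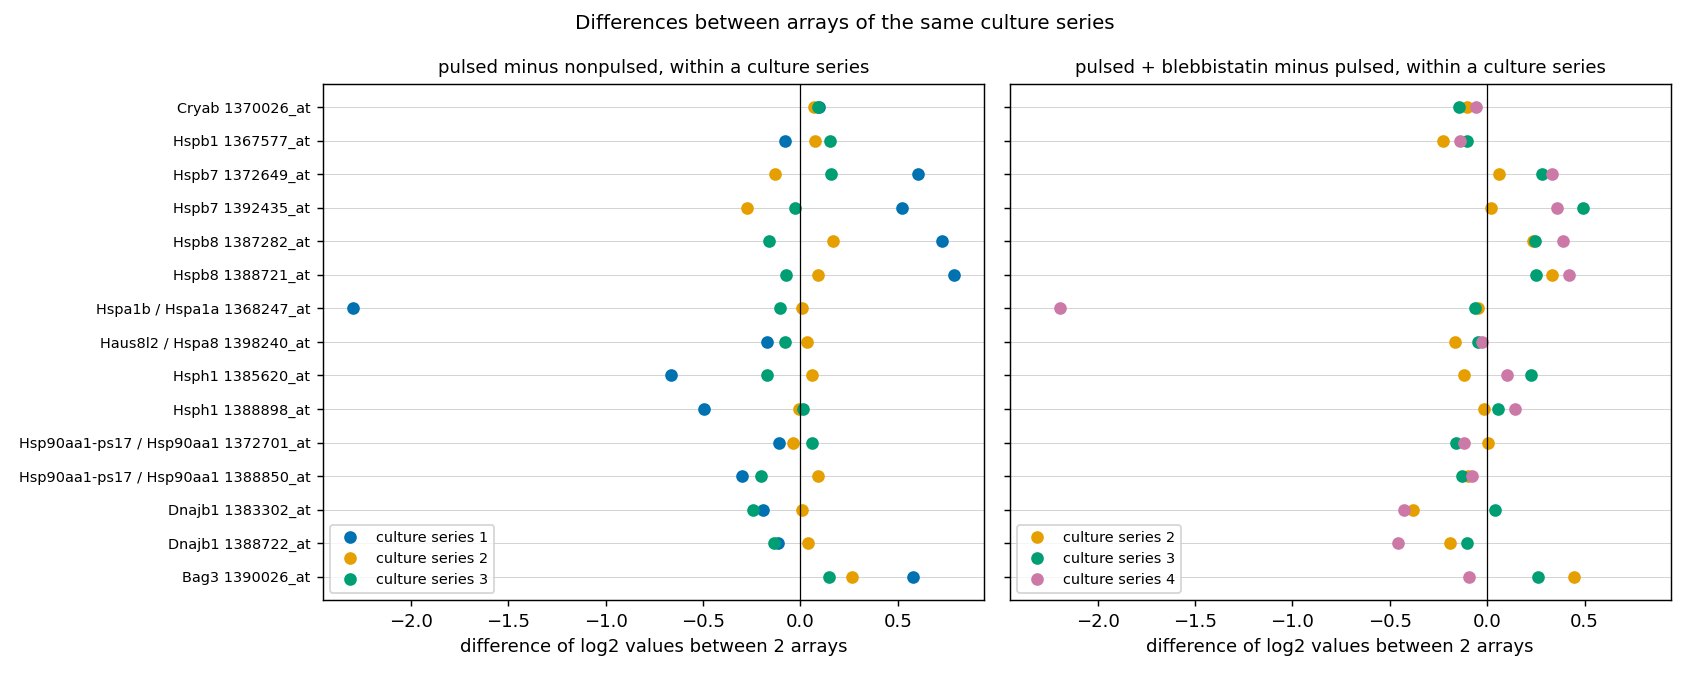
Differences of log2 values between the 2 arrays of the same culture series (horizontal axis) for each probe set, for pulsed minus nonpulsed (left, series 1 to 3) and pulsed with blebbistatin minus pulsed (right, series 2 to 4). The 2 points near -2.2 are those of the probe set shared by Hspa1b and Hspa1a, -2.30 in series 1 (pulsed minus nonpulsed) and -2.19 in series 4 (blebbistatin minus pulsed).

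Among the small heat shock proteins, Cryab encodes alpha B-crystallin, the chaperone of desmin and titin. Its probe set 1370026_at read 13.20, 13.37 and 13.29 on the nonpulsed arrays of series 1, 2 and 3, 13.29, 13.43, 13.38 and 13.09 on the pulsed arrays of series 1 to 4, and 13.33, 13.24 and 13.03 on the blebbistatin arrays of series 2, 3 and 4. The groups overlapped, and series 4 was lowest in both groups it holds. Within series pacing went with a higher value in 3 of 3 series, by 0.07 to 0.09, and the blebbistatin array was below its pulsed partner in 3 of 3 series by -0.06 to -0.14. The fitted Cryab change was 0.08 with pacing (95% interval -0.12 to 0.27, limma, adjusted p = 0.802) and -0.10 with blebbistatin against pulsed (95% interval -0.30 to 0.09, adjusted p = 0.668).

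Hspb1 encodes the HSP27-type protein that binds actin. Its values were 12.36, 12.60 and 12.25 in nonpulsed, 12.28, 12.67, 12.40 and 12.39 in pulsed and 12.44, 12.30 and 12.26 in blebbistatin arrays. All groups overlapped, and the array of series 2 was the highest of each group. The fitted Hspb1 change was 0.05 with pacing (SE 0.09, limma, adjusted p = 0.895) and -0.13 with blebbistatin against pulsed (SE 0.09, adjusted p = 0.618), where the blebbistatin array was lower in 3 of 3 series. The direction with pacing was mixed, with differences of -0.08, 0.07 and 0.15 in series 1, 2 and 3, and it turned to -0.02 when each array was centred on its median.

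Hspb7 encodes a small heat shock protein of heart and skeletal muscle. Probe set 1372649_at read 11.73, 12.54 and 12.20 in nonpulsed, 12.33, 12.41, 12.35 and 12.26 in pulsed and 12.47, 12.64 and 12.59 in blebbistatin arrays. The nonpulsed array of series 1 was the lowest of the 10, and every blebbistatin array lay above every pulsed array, as 6.18% of all probe sets did in this direction. On probe set 1392435_at the pulsed and blebbistatin groups overlapped. Its differences were 0.52, -0.27 and -0.03 for pacing and 0.02, 0.49 and 0.36 for blebbistatin against pulsed. The fitted change of 1372649_at was 0.18 with pacing (SE 0.16, limma, adjusted p = 0.736) and 0.15 with blebbistatin against pulsed (SE 0.16, adjusted p = 0.740). Without series 1 the pacing change of Hspb7 was -0.01 on the first probe set and -0.17 on the second.

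Hspb8 encodes the small heat shock protein that BAG3 carries to the Z-disc. Probe set 1388721_at read 10.30, 11.08 and 11.04 in nonpulsed, 11.09, 11.17, 10.96 and 10.92 in pulsed and 11.51, 11.22 and 11.34 in blebbistatin arrays, and 1387282_at read 9.33, 9.83 and 9.94, then 10.06, 10.00, 9.78 and 10.01, then 10.23, 10.03 and 10.40. On both probe sets the nonpulsed array of series 1 was the lowest and the blebbistatin arrays were above all nonpulsed arrays. The blebbistatin array exceeded its pulsed partner in 3 of 3 series, by 0.33, 0.25 and 0.42 on 1388721_at and by 0.23, 0.25 and 0.39 on 1387282_at. The fitted change, which also draws on the nonpulsed arrays, was 0.24 (95% interval -0.14 to 0.63, limma, adjusted p = 0.607) and 0.21 (95% interval -0.17 to 0.59, adjusted p = 0.663). Against nonpulsed cultures it was 0.48 (SE 0.19, limma, adjusted p = 0.187) and 0.42 (SE 0.18, adjusted p = 0.232). With pacing alone the changes of Hspb8 were 0.24 and 0.21, resting on series 1 (differences 0.79 and 0.73), and without series 1 they were -0.01 and -0.02.

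Cardiomyocyte markers differed between the same arrays as Hspb7 and Hspb8. Their summed level was 47810 on the nonpulsed and 78328 on the pulsed array of series 1 and 66935 and 77085 on the pulsed and blebbistatin arrays of series 4, the pairs in which Hspb8 differed most, while in series 2 it was 78969 in the pulsed and 72788 in the blebbistatin array. Of the 10 tested cardiomyocyte genes, 10 had a positive fitted change with pacing (median 0.36) and 6 with blebbistatin against pulsed (median 0.01). Their part in the Hspb7 and Hspb8 values was not tested.

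The inducible HSP70 genes Hspa1a and Hspa1b are near-identical copies and were read by 1 probe set annotated to both, 1368247_at, whose target transcript RefSeq lists under Hspa1a. It read 11.17, 10.08 and 10.24 in nonpulsed arrays of series 1 to 3, 8.87, 10.08, 10.13 and 10.99 in pulsed arrays of series 1 to 4, and 10.04, 10.07 and 8.80 in blebbistatin arrays of series 2 to 4. The 6 arrays of series 2 and 3 lay within 10.04 to 10.24 whatever the treatment, whereas both other series held 1 high and 1 low array. On the linear scale the 2 arrays of series 1 read 2298 (nonpulsed) and 468 (pulsed), and those of series 4 read 2031 (pulsed) and 445 (blebbistatin). The pulsed array was therefore the low one in series 1 and the high one in series 4.

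These contrasts give wide intervals for the Hspa1b and Hspa1a probe set. The fitted change was -0.51 with pacing (95% interval -1.86 to 0.83, limma, adjusted p = 0.805), -0.47 with blebbistatin against pulsed (95% interval -1.82 to 0.87, adjusted p = 0.792) and -0.98 against nonpulsed (95% interval -2.50 to 0.53, adjusted p = 0.397). Without series 1 the pacing change was 0.30, and without series 4 the blebbistatin change against pulsed was 0.32. The change against nonpulsed was -0.46 without series 1, -0.48 without series 4, -1.61 without series 2 and -0.11 over only the series that hold both groups. Within series 2 and 3 the differences were 0.0053 and -0.11 for pacing and -0.05 and -0.06 for blebbistatin against pulsed, and -0.04 and -0.17 for blebbistatin against nonpulsed.

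A further probe set, 1370912_at, is annotated to Hspa1a alone and is no member of the set. It read 8.69, 8.09 and 8.28 in nonpulsed, 7.61, 8.19, 8.07 and 8.27 in pulsed and 8.66, 8.60 and 7.71 in blebbistatin arrays. Hspa1a on this probe set was also lower in the pulsed array of series 1 (-1.08) and in the blebbistatin array of series 4 (-0.55), but in series 2 and 3 it was higher with blebbistatin by 0.47 and 0.52, where the shared probe set was flat. Its fitted change was -0.26 with pacing (SE 0.29, limma, adjusted p = 0.802) and 0.28 with blebbistatin against pulsed (SE 0.29, adjusted p = 0.740), so the 2 probe sets had opposite signs in the blebbistatin comparison.

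Some markers of other cells differed in the same series as the Hspa1 probe set. Smooth muscle and pericyte markers summed to 23334 on the nonpulsed and 15166 on the pulsed array of series 1, and to 18676 on the pulsed and 8559 on the blebbistatin array of series 4. In series 2 and 3, where the Hspa1 probe set was flat, they summed to 16455 and 15898 on the pulsed and to 11713 and 8749 on the blebbistatin arrays. Fibroblast sums were 61163 (nonpulsed) and 60643 (pulsed) in series 1 and 59099 (pulsed) and 51038 (blebbistatin) in series 4. In the same order, endothelial sums were 1096, 1391, 1312 and 1276, and macrophage and leukocyte sums were 5955, 4565, 4975 and 2921. The log2 excess of the 3′ over the 5′ control for beta-actin, which reflects RNA integrity, was 0.45 and 0.60 on the nonpulsed and pulsed arrays of series 1, 0.72 and 0.69 on the pulsed and blebbistatin arrays of series 4, and 0.63 to 0.77 on the arrays of series 2 and 3. For GAPDH this excess was 0.17 and 0.11 in series 1, 0.17 and 0.22 in series 4 and 0.06 to 0.19 in series 2 and 3. For hexokinase it was 0.85 and 0.96, then 0.99 and 1.03, then 0.80 to 1.04. On both of these controls series 1 lay within the range of the other series. The part of the markers and of RNA integrity in the Hspa1 values was not tested.

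Of all other named genes, 3 were chosen for the pattern most like that of the shared Hspa1 probe set over the 10 arrays after culture series means were subtracted. They were B3gnt2, an enzyme of polylactosamine synthesis (Pearson r = 0.998), Plk3, a polo-like kinase (r = 0.989) and Fhl3, a LIM domain protein (r = 0.986). They are the highest of 11839 genes, the arrays share their series, and the likeness rests on series 1 and 4, since within the 6 arrays of series 2 and 3 the r was 0.91, -0.41 and 0.50. Plk3 read 6.84 and 5.79 on the nonpulsed and pulsed arrays of series 1 and 6.99 and 5.85 on the pulsed and blebbistatin arrays of series 4. For Cryab the 3 genes most alike were COX1 as the annotation names it (Pearson r = 0.97), Akap13, an anchoring protein for protein kinase A (r = 0.957), and Ube2h, a ubiquitin-conjugating enzyme (r = 0.949). These too are the highest of 11839 genes, and some ranges are narrow. Cryab spanned 0.40 over the 10 arrays, and COX1 lay between 13.64 and 13.80.

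Hspa8 encodes the constitutive HSC70, which carries out most HSP70 work in unstressed cells. The 1 probe set, 1398240_at, is annotated to Haus8l2 as well, and RefSeq lists its target transcript under Hspa8. It read 13.05, 12.99 and 13.11 in nonpulsed, 12.87, 13.03, 13.03 and 12.91 in pulsed and 12.86, 12.98 and 12.88 in blebbistatin arrays, so that all 10 lay between 12.86 and 13.11. All blebbistatin arrays were below all nonpulsed arrays, as for 6.9% of probe sets in this direction. The fitted change of the Hspa8 probe set was -0.08 with pacing (95% interval -0.29 to 0.13, limma, adjusted p = 0.805) and -0.14 for blebbistatin against nonpulsed (95% interval -0.38 to 0.09, adjusted p = 0.426).

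Hsph1 encodes HSP105, a nucleotide exchange factor of the HSP110 family. Probe set 1385620_at read 8.78, 8.43 and 8.48 in nonpulsed, 8.12, 8.49, 8.31 and 8.32 in pulsed and 8.37, 8.53 and 8.42 in blebbistatin arrays. The highest and the lowest value were those of the nonpulsed and pulsed arrays of series 1, and the groups overlapped. The difference in series 1 was -0.67 on this probe set and -0.49 on 1388898_at, against 0.06 and -0.01 in series 2 and -0.17 and 0.01 in series 3. Without series 1 the fitted pacing change of 1385620_at was -0.06. The fitted Hsph1 change with pacing was -0.25 (SE 0.14, limma, adjusted p = 0.614) and -0.17 (SE 0.12, adjusted p = 0.688). In series 4, where the Hspa1 probe set was low in the blebbistatin array, Hsph1 was higher there by 0.10 and 0.14, so their differences had opposite signs in that pair.

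Hsp90aa1 encodes the inducible HSP90 alpha, and both of its probe sets are also annotated to the pseudogene Hsp90aa1-ps17. Probe set 1372701_at ranged from 12.47 to 12.69 in nonpulsed, 12.53 to 12.66 in pulsed and 12.37 to 12.66 in blebbistatin arrays. Probe set 1388850_at ranged from 11.28 to 11.42, 11.05 to 11.37 and 10.98 to 11.27, so that its blebbistatin arrays lay below its nonpulsed arrays. The fitted change of the Hsp90aa1 probe sets was -0.02 and -0.14 with pacing, -0.08 and -0.07 with blebbistatin against pulsed and -0.10 and -0.21 against nonpulsed (SE 0.09 to 0.12, limma, adjusted p = 0.326 for the last). Over the probe sets of Cryab, Hspa8 and Hsp90aa1 and the 3 comparisons, the bound of a 95% interval farthest from 0 was -0.49, that of 1388850_at for blebbistatin against nonpulsed.

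Dnajb1 encodes HSP40, the J protein that starts the HSP70 cycle. Probe set 1388722_at read 9.81, 9.82 and 9.87 in nonpulsed, 9.70, 9.86, 9.73 and 10.02 in pulsed and 9.67, 9.63 and 9.56 in blebbistatin arrays, and 1383302_at read 9.27, 9.25 and 9.23, then 9.08, 9.26, 8.98 and 9.33, then 8.88, 9.02 and 8.90. On 1388722_at the blebbistatin arrays were below every other array, which 3.67% of all probe sets showed against pulsed and 6.9% against nonpulsed arrays. On 1383302_at the pulsed and blebbistatin groups overlapped through series 3, where the difference was 0.04. The fitted change of Dnajb1 with blebbistatin against pulsed was -0.24 on both (SE 0.10 and 0.11, limma, adjusted p = 0.437 and 0.460), and against nonpulsed it was -0.27 and -0.35 (SE 0.12 and 0.13, adjusted p = 0.224 and 0.166). With pacing it was -0.03 and -0.11, and on 1388722_at it was 0.0034 without series 1.

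Bag3 encodes the co-chaperone that couples HSP70 and HSPB8 to autophagy of damaged muscle proteins. Its probe set 1390026_at averaged 10.52 ± 0.24 (SD, n = 3) without pacing, 10.94 ± 0.20 (SD, n = 4) with it and 11.18 ± 0.19 (SD, n = 3) when blebbistatin was added. The arrays read 10.24, 10.68 and 10.63 in nonpulsed, 10.82, 10.95, 10.77 and 11.21 in pulsed and 11.40, 11.04 and 11.12 in blebbistatin arrays. Every pulsed and every blebbistatin array was above every nonpulsed array, while the last groups overlapped. Such a separation with pacing was shown by 6.17% of all probe sets tested and with blebbistatin against nonpulsed by 17.6%.

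The pulsed array of Bag3 exceeded its nonpulsed partner by 0.58, 0.26 and 0.14 in series 1, 2 and 3, and the blebbistatin array exceeded its pulsed partner by 0.45 and 0.26 in series 2 and 3 and was below it by -0.09 in series 4. The fitted change was 0.37 with pacing, or 1.30-fold (95% interval 0.07 to 0.68, limma, Benjamini-Hochberg adjusted p = 0.494), 0.17 with blebbistatin against pulsed (95% interval -0.13 to 0.48, adjusted p = 0.649) and 0.55 against nonpulsed, or 1.46-fold (95% interval 0.20 to 0.89, adjusted p = 0.109). With culture series as a random block the last change was 0.60 at an adjusted p = 0.0417 in limma, the 1 setting of 24 in which a member passed. That setting called 1212 probe sets, 5.21% of those tested, against 110 in the reported fit, so 1 of 15 is near its background share. The adjusted p of Bag3 over the 24 settings lay between 0.0417 and 0.362. With pacing the unadjusted p of Bag3 was under 0.05 in the reported fit, but 0 members had such a p without culture series 1 or without series 2, where its change was 0.28 and 0.39. For blebbistatin against pulsed the change of Bag3 was 0.05 without the blebbistatin array of series 2 and 0.29 without series 4.

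With pacing, cardiomyocyte markers differed between the same arrays as Bag3. The cardiac myosin gene Myh6, chosen after its values were seen, was higher in the pulsed array by 0.80, 0.25 and 0.14 in series 1, 2 and 3. The largest fitted change of the marker list was that of Ryr2 (0.61), and 10 of 10 cardiomyocyte markers had a positive fitted change with pacing (median 0.36). The marker sum was 47810, 68411 and 64982 on the nonpulsed and 78328, 78969 and 66338 on the pulsed arrays of series 1, 2 and 3. In series 1 the nonpulsed array, the lowest for Bag3, also had the lowest marker sum. For blebbistatin against pulsed the marker sum was lower in series 2 (72788 against 78969), where Bag3 was higher. It was higher in series 3 (70316 against 66338), as Bag3 was. In series 4 the sum was also higher (77085 against 66935), where Bag3 was lower. The part of the markers in the Bag3 values was not tested.

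**Figure D3:**
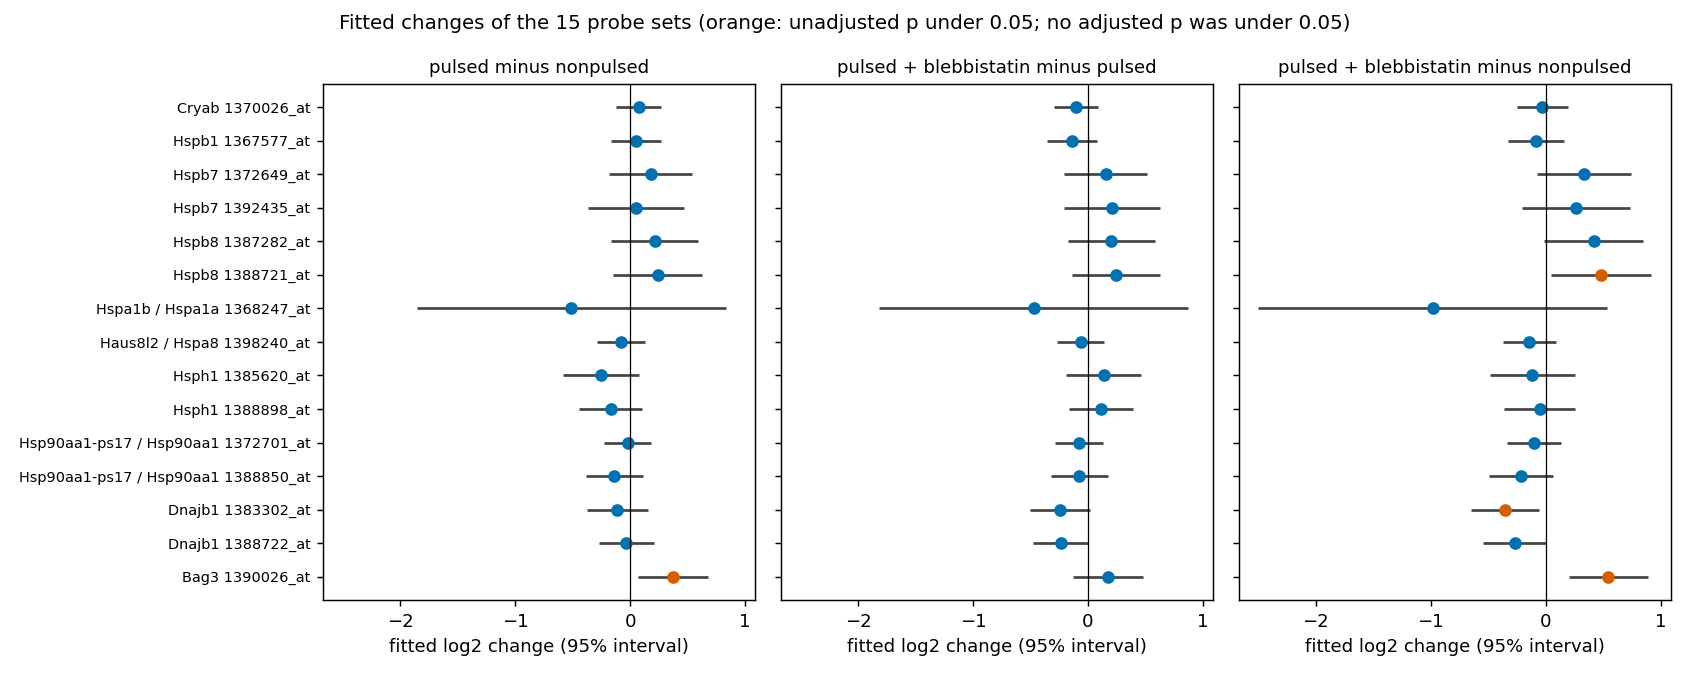
Fitted log2 changes (points) with 95% intervals (lines) of the 15 probe sets in the 3 comparisons, in orange where the unadjusted p was under 0.05. Bag3 lies at 0.37 with pacing and at 0.55 for blebbistatin against nonpulsed, and the interval of the Hspa1b and Hspa1a probe set is the widest in each panel.

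Counted without overlap of the groups, 1 of the 15 probe sets was higher and 0 were lower with pacing (6.17% and 1.16% of all probe sets). For blebbistatin against pulsed 2 were higher (6.18%) and 1 was lower (3.67%). For blebbistatin against nonpulsed 3 were higher (17.6%), those of Bag3 and Hspb8, and 5 were lower (6.9%), both of Dnajb1, 1 of Hsp90aa1 and those of Hspa8 and Hspa1b. These 5 stand for 4 genes, since probe sets of 1 gene are not independent. In the 2 series that hold both groups the differences of these 5 were all negative and between -0.0087 and -0.37. The groups nearly touched for Hspa8, Hspa1b and Hsp90aa1 1388850_at. Their highest blebbistatin and lowest nonpulsed values were 12.98 and 12.99, 10.07 and 10.08, and 11.27 and 11.28.

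Probe sets of the same gene gave like patterns over the 10 arrays with series means subtracted, as a description. The Pearson r was 0.99 for Hspb8, 0.94 for Hspb7, 0.94 for Hsph1, 0.91 for Dnajb1 and 0.62 for Hsp90aa1, whose range is narrow. The Hspa1b and Hspa1a probe set had an r of 0.73 and 0.66 with those of Dnajb1 and -0.85 and -0.84 with those of Hspb8, values that share the arrays of series 1 and 4. Within pairs of arrays the member medians were -0.11, 0.04 and -0.07 for pacing in series 1, 2 and 3, against 0.10, 0.04 and 0.02 over all probe sets. For blebbistatin against pulsed they were -0.05, 0.04 and -0.06 in series 2, 3 and 4, against 0.03, 0.02 and 0.05. A difference over 2-fold within a pair was seen for 1 member in series 1 and 1 in series 4, in both cases the Hspa1b and Hspa1a probe set, where 4.58% and 2.39% of all probe sets differed by that much.

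Further genes of the chaperone network were taken from 9 lists of 81 genes, of which 74 were tested, with 1 probe set for each gene. In limma 0 of the 74 passed the adjusted threshold in any of the 3 comparisons. At an unadjusted p under 0.05, 2 were higher and 1 lower with pacing, where 7.71% and 1.36% of all probe sets were. For blebbistatin against pulsed 8 were higher and 2 lower (6.09% and 5.51% of all), and against nonpulsed 6 were higher and 6 lower (15.5% and 6.89% of all). The medians over the 74 were -0.01, 0.06 and 0.05, against 0.04, 0.02 and 0.07 over all probe sets.

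Other small heat shock proteins, with 3 genes tested, had medians of 0.11 with pacing, 0.13 with blebbistatin against pulsed and 0.28 against nonpulsed. Hspb6, the HSP20 gene of muscle, had changes of 0.08, 0.20 and 0.28, Hspb2 had 0.19 with pacing and 0.32 against nonpulsed, and Hspb3 had -0.38 with blebbistatin against pulsed, with differences of -1.06, -0.20 and 0.28 in series 2, 3 and 4. Other HSP70 and HSP110 genes, with 8 tested, had medians of -0.10, 0.07 and -0.06. Hspa4l, an HSP110 gene related to Hsph1, had the largest change with pacing (-0.45, SE 0.11, limma, adjusted p = 0.480), with differences of -0.25, -0.49 and -0.49 in series 1, 2 and 3, and its change with blebbistatin against pulsed was 0.31. Hspa12a had a change of 0.34 with blebbistatin against pulsed (SE 0.09, limma, adjusted p = 0.288), positive in 3 of 3 series, and Hspa2 had -0.46 there and -0.61 against nonpulsed.

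J proteins, with 10 tested, had medians of 0.01, 0.04 and 0.06. Their largest changes were those of Dnajb5 with pacing (0.32, SE 0.12, limma, adjusted p = 0.494) and of Dnajb4 with blebbistatin against pulsed (-0.47, SE 0.20, adjusted p = 0.440) and against nonpulsed (-0.64). Dnajb4 was lower with blebbistatin in series 2, 3 and 4 by -0.37, -0.51 and -0.88, as Dnajb1 was on probe set 1388722_at. HSP90 and its co-chaperones, with 14 tested, had medians of -0.03, 0.06 and 0.08, with 13 of 14 positive for blebbistatin against pulsed, where 55.5% of all probe sets were. Unc45b, the myosin chaperone of striated muscle, had changes of 0.41 with pacing (SE 0.22, differences of 1.08, 0.32 and 0.03 in series 1, 2 and 3) and 0.44 for blebbistatin against nonpulsed, and Fkbp5, a co-chaperone of steroid receptors, 0.24 with blebbistatin against pulsed.

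Nucleotide exchange factors, with 6 tested, had medians of -0.0019, 0.08 and 0.06, and Bag2 the largest change in each comparison (-0.17, -0.35 and -0.52). Heat shock factors and the binding protein Hsbp1, with 4 tested, had medians of 0.10, 0.06 and 0.23. Hsf1, the activator of the heat shock genes, had changes of 0.05, 0.19 and 0.25 (SE 0.10, 0.10 and 0.11), and Hsf4 had 0.20 with pacing and 0.25 for blebbistatin against nonpulsed. Chaperonin and prefoldin genes, with 13 tested, had medians of -0.02, 0.05 and 0.03, with 13 of 13 negative with pacing, where 38.9% of all probe sets were. The prefoldin genes Pfdn1 (-0.32 with pacing and -0.43 for blebbistatin against nonpulsed) and Pfdn6 (0.32 for blebbistatin against pulsed) had the largest changes of the list there. Some of the pacing changes were near 0, such as -0.0017 for Cct4 and -0.0082 for Cct3. In series 2 Tcp1, Cct3, Cct4, Cct6a, Cct7, Pfdn2, Pfdn5 and Pfdn6 were higher with pacing, and the other chaperonin and prefoldin genes were lower.

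Mitochondrial chaperones, with 6 tested, had a positive fitted change for all 6 in each comparison, with medians of 0.08, 0.19 and 0.25, where 61.1%, 55.5% and 61% of all probe sets were positive. The count against nonpulsed follows from the others, since that change is their sum. Only Hspd1 and Hspe1 were higher with pacing in 3 of 3 series, and Grpel1 differed by 0.36, -0.0088 and -0.13 in series 1, 2 and 3. Dnaja3, a J protein of the matrix, had changes of 0.14, 0.42 (SE 0.12, limma, adjusted p = 0.316) and 0.56 (SE 0.14, adjusted p = 0.0937), and Hspa9, the matrix HSP70, of 0.31 and 0.40 in the blebbistatin comparisons. For Dnaja3 the blebbistatin array was above its pulsed partner in 3 of 3 series, by 0.26, 0.57 and 0.57.

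Partners and clients of BAG3 in autophagy, with 10 tested, had medians of -0.03, -0.04 and -0.04. Sqstm1, the p62 receptor that brings clients to autophagosomes, had changes of 0.25 with pacing (SE 0.11, limma, adjusted p = 0.566), 0.32 with blebbistatin against pulsed (SE 0.11, adjusted p = 0.372) and 0.56 against nonpulsed (SE 0.13, adjusted p = 0.086), with the blebbistatin array higher by 0.66 and 0.63 in the 2 series that hold both. Against its pulsed partner the blebbistatin array was higher for Sqstm1 by 0.57, 0.32 and 0.04 in series 2, 3 and 4. Synpo2, a Z-disc protein that binds BAG3, was at 0.51 with pacing (SE 0.16, limma, adjusted p = 0.485) and at -0.57 with blebbistatin against pulsed (SE 0.16, adjusted p = 0.316), comparisons that share the pulsed arrays. Its differences with pacing were 1.04, 0.39 and 0.16 in series 1, 2 and 3, and with blebbistatin against pulsed -0.64, -0.39 and -0.40 in series 2, 3 and 4. Filamin genes differed: Flnc, the muscle filamin, had a change of 0.37 with blebbistatin against pulsed (differences of 0.65, 0.55 and 0.07 in series 2, 3 and 4) and Flna, the broadly expressed one, of -0.62 (SE 0.19, adjusted p = 0.316). All 9 smooth muscle and pericyte markers also had a negative change there (median -0.66), and their part in the Flna and Synpo2 values was not tested.

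**Figure D4:**
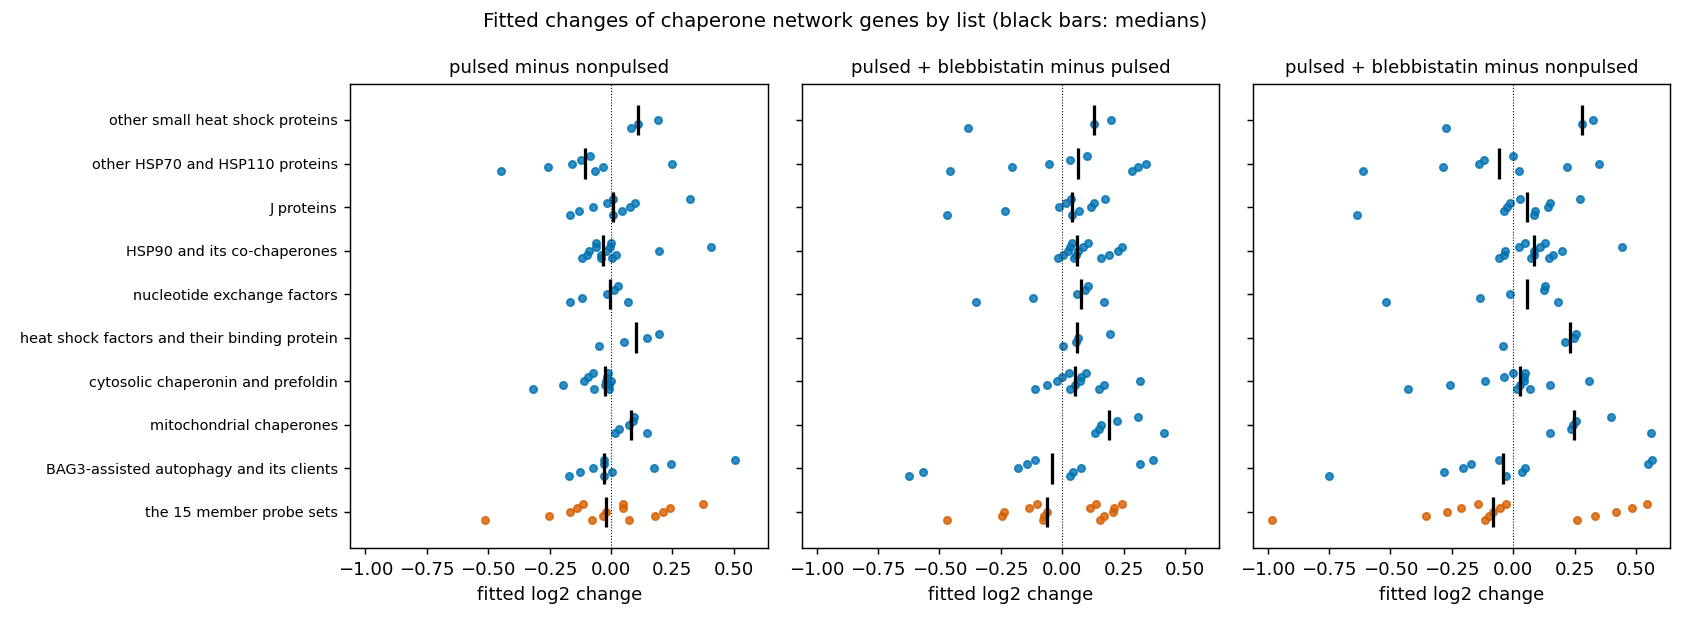
Fitted log2 changes of the 74 tested network genes by list (blue, 1 point per gene) and of the 15 member probe sets (orange) in the 3 comparisons, with black bars at the medians and points spread vertically for sight only. Mitochondrial chaperones lie above 0 in each panel. For blebbistatin against nonpulsed each change is the sum of those in the other panels. The BAG3 list spreads from -0.62 to 0.37 for blebbistatin against pulsed.

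Markers of other cell types had median changes with pacing of -0.02 for fibroblasts, -0.15 for smooth muscle and pericytes, 0.14 for endothelium, 0.03 for macrophages and leukocytes, -0.09 for erythroid, -0.35 for Schwann and neural, 0.03 for mesothelial and epicardial and -0.01 for atrial genes. With blebbistatin against pulsed they were -0.28, -0.66, -0.21, -0.33, -0.05, 0.19, 0.24 and -0.01 in the same order, and against nonpulsed -0.28, -0.71, -0.10, -0.44, -0.14, -0.16, 0.28 and -0.02. The erythroid, Schwann and mesothelial medians rest on 2, 1 and 2 tested genes.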

How the data were processed

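RNA of 10 Affymetrix arrays was compared. The authors deposited 1 value for each probe set and array, on a scale taken here as log2 from its range, since no source states the base; every change, fold and linear sum rests on that reading. The submitters' processing notes name PLIER and Affymetrix Expression Console 1.1, without settings. Of 31099 probe sets, 57 controls were left out, 20826 had 1 gene symbol, 436 several and 9780 none in the array annotation. The 25% with the lowest mean (under 5.093) were left out before testing. Groups were compared with limma 3.58.1 (R 4.3.3, statmod 1.5.0) over the 10 arrays, with a fixed term for the culture series (4 residual degrees of freedom), a threshold of 0.05 and Benjamini-Hochberg adjustment, and the procedure was tested on simulated data. For pulsed against nonpulsed, this test recovered 67 of 100 changes of log2 size 1 and 92 of 100 of size 2, with 8 false calls. The fitted member change largest in size, -0.98, was that of the Hspa1b and Hspa1a probe set for blebbistatin against nonpulsed. That comparison was not simulated, and this SE was 0.65, against a median of 0.14 over all probe sets tested. The next largest in size was 0.55 (Bag3), and changes of such sizes were not simulated, so recovery of the member changes is not known. The number of arrays limits the precision.

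The culture dates in the labels pair the arrays: deviations from group means correlated at 0.35 to 0.63 (median 0.42) in 8 pairs of the same series and at -0.58 to 0.50 (median -0.26) in 25 pairs differing in series and group, so the ranges overlap. Since deviations cancel within a group, positive values for pairs of the same series bring negative ones for the other pairs. The median of -0.26 is therefore partly built in. Members and lists were chosen with earlier results of these data known. Named were all members, in each chaperone network list and comparison the gene with the largest change, and the 3 genes most like Hspa1b and Cryab. Probe sets shared with another gene are included and named by both symbols. Hspa1a, Hspb6, Hspa12a, Hspa9, Sqstm1, Flnc and Myh6 were named after their values were seen. Promoters came from RefSeq (GRCr8). The alternatives changed the block, normalization, filter, probe sets, prior, arrays and culture series, 24 settings in all.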

Additional observations from a re-analysis of the deposited data

How the results depend on the processing

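Over 24 settings, 34 of the 45 member changes kept their direction, and 38 of 1068 values reversed. Members called were 0 in each, except for 1 (Bag3) against nonpulsed with a random block. With pacing, 0 probe sets were called in all settings. Without culture series 1, or either of its arrays, the pacing change was 0.0034 for Dnajb1 1388722_at, 0.019 for Hsp90aa1 1372701_at, 0.305 for Hspa1b and Hspa1a, -0.014 and -0.168 for Hspb7 1372649_at and 1392435_at and -0.022 and -0.012 for Hspb8 1387282_at and 1388721_at. The change against nonpulsed was then 0.0037 and 0.0415 for Hsph1 1385620_at and 1388898_at. Median centring gave pacing changes of -0.022 for Hspb1 and -0.0224 for Hspb7 1392435_at. Without series 3 the pacing change was -0.0100 for Hspb1 and 0.0030 for Dnajb1 1388722_at. Without series 4, or either of its arrays, blebbistatin against pulsed was 0.318 for Hspa1b and Hspa1a, and the member median was 0.0716. Hsph1 1388898_at against nonpulsed was 0.0209 over only the series holding both groups and over only the 2 groups.

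Leaving out 1 array gave ranges with pacing of -0.0859 to 0.0138 for Dnajb1 1388722_at, -0.0557 to 0.0191 for Hsp90aa1 1372701_at, -0.91 to 0.305 for Hspa1b and Hspa1a and -0.0155 to 0.109 for Hspb1. They were -0.014 to 0.375 and -0.168 to 0.276 for Hspb7, and -0.022 to 0.405 and -0.012 to 0.406 for Hspb8. For blebbistatin against pulsed the range was -0.842 to 0.318 for Hspa1b and Hspa1a and -0.0788 to 0.0716 for the member median. Against nonpulsed it was -0.234 to 0.0037 and -0.149 to 0.0415 for Hsph1 and -0.146 to -0.0337 for the member median, and the pacing median, -0.0222, was 0.0138 without the pulsed array of series 3. Leaving out 1 array moved a change by over 1.5 times or turned its sign for 13 of 15 probe sets with pacing, 12 of 15 for blebbistatin against pulsed and 9 of 15 against nonpulsed. Examples without a turn of sign are Hsph1 1385620_at with pacing (-0.0644 without either array of series 1) and, for blebbistatin against pulsed without either array of series 4, Hspb7 1372649_at (0.0716) and Dnajb1 1388722_at (-0.135).

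Probe sets called for blebbistatin against pulsed, 3 in the reported fit, were 5 with no replicate block, 14 with a random block, 48 over only the series holding both groups, 12 over only the 2 groups, 0 with no filter, 6 with the lowest 50% left out, and 48, 0, 0 and 1 without culture series 1, 2, 3 and 4. Leaving out 1 array gave 0 to 48. Against nonpulsed, the 110 became 46 with no replicate block, 1212 with a random block, 31 over only the series holding both, 2 over only the 2 groups, 67 after quantile normalization, 1 with no filter, 70 with the lowest 50% left out, 63 with 1 probe set per gene, 211 with a trended robust prior, and 69, 0, 0 and 36 without series 1 to 4. Leaving out 1 array gave 0 to 69. Of those called, 70 of 110 were higher, against 52 of 102 after median centring, which moved the member median to -0.168, and 33 of 67 after quantile normalization. The causes were not tested.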
